A study of Homo sapiens with 15 samples.

Results

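The unfolded protein response was followed through 8 genes in the human myeloma line MM.1S, treated for 6 h with compounds that act on the coactivators CBP and p300. The genes were taken by symbol from a table of 47459 genes, and all 8 were found: the sensors ERN1, ATF6, ATF6B and EIF2AK3, the transcription factor XBP1, and the output genes DNAJB9, HERPUD1 and EDEM1. The 5 groups had 3 libraries each, 15 in all. Cells received DMSO, the catalytic inhibitor A-485, the bromodomain inhibitor GNE-781, both inhibitors at once (the combination), or dCBP-1, with each compound at 100 nM. dCBP-1 is a degrader that couples a ligand related to GNE-781 to a ligand of the ubiquitin ligase receptor cereblon, and no group received a cereblon ligand alone. All groups share the same line, which carries MAF joined to the immunoglobulin heavy chain locus by translocation, so the data speak for a single tumour background.

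The endoplasmic reticulum carries several membrane sensors of unfolded protein. ERN1 encodes IRE1, a kinase and endoribonuclease that cuts XBP1 mRNA so that, once rejoined, it encodes the active XBP1 transcription factor; ATF6 and its paralogue ATF6B are released from the membrane by proteolysis and act in the nucleus; EIF2AK3 encodes PERK, which phosphorylates the initiation factor eIF2 and thereby favours translation of ATF4. DNAJB9 (ERdj4, a cochaperone of BiP that also binds IRE1), HERPUD1 (a scaffold of the degradation machinery of the reticulum) and EDEM1 (which directs misfolded glycoproteins to degradation) are classical output genes. Plasma cells, from which myeloma arises, need XBP1 for their high rate of immunoglobulin secretion. Reads were counted at the 3′ ends of mRNA, so that spliced and unspliced XBP1 mRNA could not be told apart, nor could sensor protein or its activity be seen.

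The promoters of ERN1, XBP1 and HERPUD1 are shown because these are the genes that fell most in the degrader comparisons among the 8. They are the 250 bases upstream of the start site in RefSeq (GRCh38.p14), and capitals mark a match to an endoplasmic reticulum stress element. That of ERN1 lies at chr17:64130145-64130394 on the minus strand, that of XBP1 at chr22:28800570-28800819 on the minus strand, and that of HERPUD1 at chr16:56931892-56932141 on the plus strand.
ERN1: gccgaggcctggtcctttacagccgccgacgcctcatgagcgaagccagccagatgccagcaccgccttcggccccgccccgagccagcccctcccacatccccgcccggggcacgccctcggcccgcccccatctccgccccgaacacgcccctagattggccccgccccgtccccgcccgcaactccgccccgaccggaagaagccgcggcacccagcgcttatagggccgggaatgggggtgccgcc
XBP1: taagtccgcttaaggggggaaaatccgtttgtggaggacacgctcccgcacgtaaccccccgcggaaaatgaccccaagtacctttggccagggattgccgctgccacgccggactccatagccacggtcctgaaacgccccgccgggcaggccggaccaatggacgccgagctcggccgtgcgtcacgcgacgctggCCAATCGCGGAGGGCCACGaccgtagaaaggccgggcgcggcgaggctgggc
HERPUD1: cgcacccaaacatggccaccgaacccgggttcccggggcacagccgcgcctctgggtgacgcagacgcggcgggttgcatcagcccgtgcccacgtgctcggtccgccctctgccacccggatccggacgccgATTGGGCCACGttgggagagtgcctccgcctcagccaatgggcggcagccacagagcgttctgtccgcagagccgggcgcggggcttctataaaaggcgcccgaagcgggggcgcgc
Of the motifs searched on both strands, ERSE (CCAAT and CCACG with 9 bases between them) was found in the XBP1 window and ERSE-II (ATTGG and CCACG with 1 base between them) in the HERPUD1 window. No other match to these motifs, to UPRE (TGACGTGG) or to CRE (TGACGTCA) was found in the 9 windows of the 8 genes. Among 35114 promoter windows of the same length, 0.0740% held ERSE, 0.0513% ERSE-II, 0.612% UPRE and 1.65% CRE. These are matches of letters, and no binding was measured here.

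Library depth ran from 13.10 to 18.29 M reads, and the 8 genes had between 178 and 10756 reads in any library. Mitochondrial transcripts made up 23.1% of reads in DMSO replicate 1 and 19.7% in DMSO replicate 2, and 14.3% to 17.0% in the remaining 13 libraries. DMSO replicates 1 and 2 also had reads in fewer genes, 16557 and 17585, against 19128 to 21140 in the remaining 13. Each comparison with DMSO is therefore given also without these 2 libraries where that changes a call; the lone control left is then assumed to vary like the other groups. The markers set for plasma cells were all present, with a summed normalized read count of 55268 to 58057 in DMSO falling to 23054 to 23990 in dCBP-1. Each of them had a lower mean with dCBP-1, where ERN1, XBP1 and HERPUD1 were also lowest, than with DMSO. The summed normalized read count of 4 T cell markers ran from 6.07 to 12.7 in DMSO and from 5.93 to 9.31 in dCBP-1, with CD3D at 0 throughout and CD3E at most 11.6. That of 3 myeloid markers ran from 0 to 7.28 and from 4.66 to 11.9, with CSF1R at 0 throughout and CD14 at most 16.6. That of 3 epithelial markers ran from 0 to 5.77 in DMSO, 0 to 11.9 in A-485, 9.52 to 13.8 in GNE-781, 17.5 to 23.8 in the combination and 21.8 to 30.8 in dCBP-1, where KRT18 had a mean of 20.5 against 0 in DMSO. The 3 fibroblast markers summed to between 6.73 and 19.4 in DMSO and between 4.66 and 7.11 in dCBP-1, and the erythroid ones, nearly all HBB with ALAS2 at 0 throughout, to between 75.9 and 147 and between 26.7 and 37.9. The part of these changes in the results was not tested. In bulk RNA, fewer cells of a type and less RNA per cell cannot be told apart. Levels are normalized read counts, fold changes are on the scale of log2(normalized read count + 1), and a gene is said to have risen or fallen where limma's adjusted p, over the 16104 genes tested, was below 0.05.

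With dCBP-1, 7 of the 8 genes fell, and ATF6 did not pass the test in any comparison. ERN1, XBP1 and HERPUD1 stood lowest relative to DMSO, at 15.6%, 27.9% and 22.1% of it. Of the 8, 2 fell with A-485, 6 with GNE-781 and 7 with the combination. None of the 8 rose in any comparison with DMSO. The share of all tested genes called in either direction was 2.14% for A-485, 16.6% for GNE-781, 21.0% for the combination and 37.8% for dCBP-1, the last divided into 19.3% higher and 18.5% lower. The median log2 fold change of the 8 was −0.47, −0.59, −0.87 and −1.36 in that order, beside −0.03, 0.07, 0.09 and 0.07 over all genes tested. These 4 comparisons share the DMSO libraries, and the 8 genes were chosen with earlier results of these data known. Without both DMSO replicates 1 and 2, 0, 2, 3 and 6 of the 8 genes were called in the same order, beside 0.0745%, 5.48%, 6.61% and 23.5% of all genes tested.

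**Figure D1:**
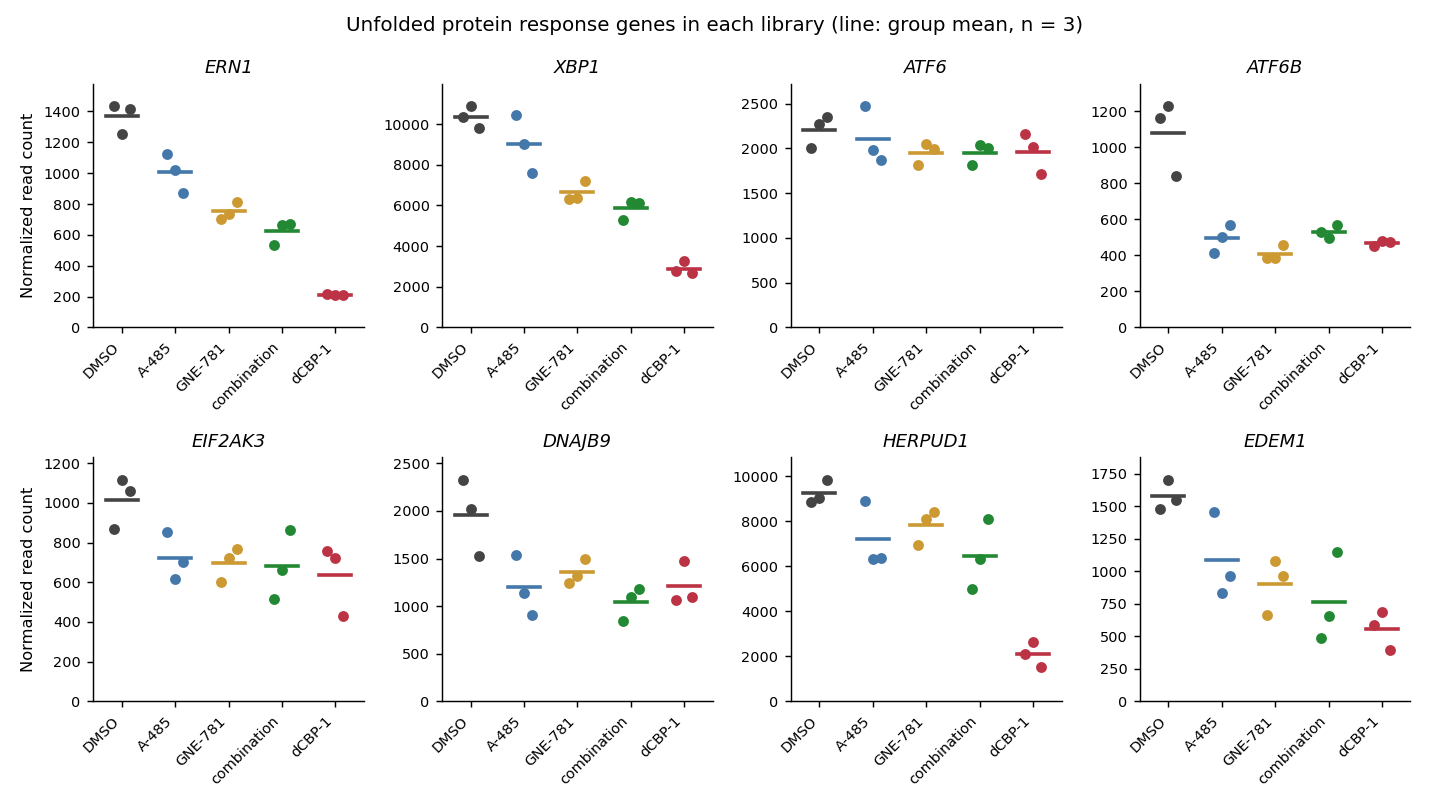
Normalized read count (vertical axis, from 0) of each of the 8 genes in every library, by group; points are libraries and lines are group means of 3. ERN1, XBP1 and HERPUD1 are lowest in the dCBP-1 libraries, while the ATF6 libraries overlap between all groups.

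ERN1 (ENSG00000178607) had 1437, 1257 and 1415 normalized read counts in the DMSO libraries, 1125, 1024 and 875 with A-485, 706, 734 and 815 with GNE-781, 537, 664 and 673 with the combination, and 215, 213 and 211 with dCBP-1. The treated libraries all lay below the DMSO libraries, and the dCBP-1 libraries below every other library. On the log2 scale the gene fell by 0.86 ± 0.14 (SE, n = 3 against 3) with GNE-781 (limma, adjusted p = 7.6e-05), by 1.14 ± 0.14 with the combination (adjusted p = 1.2e-06) and by 2.68 ± 0.14 with dCBP-1 (adjusted p = 1.2e-15). With A-485 the difference was −0.45 ± 0.14 and missed the threshold (limma, adjusted p = 0.0888), while edgeR and DESeq2 on the recovered reads called it (adjusted p = 0.0490 and 0.0042). The order of group means was DMSO, A-485, GNE-781, combination and dCBP-1. Between neighbours, the step that passed limma's test on the deposited scaling was the one from the combination to dCBP-1. The step from A-485 to GNE-781 was called in 5 of 17 alternatives.

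XBP1 (ENSG00000100219), the factor whose mRNA IRE1 cuts, followed the same order. Its DMSO libraries held 10336, 10899 and 9792 normalized read counts, those with A-485 10459, 9037 and 7613, those with GNE-781 6337, 6380.3 and 7197, those with the combination 5275, 6180.5 and 6109.7, and those with dCBP-1 2756, 3254 and 2670.2. A-485 overlapped DMSO, and the other 3 treatments did not. The log2 fold change was −0.21 ± 0.13 with A-485 (limma, adjusted p = 0.486), −0.64 ± 0.13 with GNE-781 (adjusted p = 0.0013), −0.82 ± 0.13 with the combination (adjusted p = 6.3e-05) and −1.84 ± 0.13 with dCBP-1 (adjusted p = 3.0e-12). The GNE-781 value was −0.56 and no longer called without both DMSO replicates 1 and 2 (adjusted p = 0.0685).

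ATF6 (ENSG00000118217) and ATF6B (ENSG00000213676), are paralogous membrane-bound transcription factors; ATF6B fell with all 4 treatments and ATF6 was called in none, and the difference between the 2 genes was not tested. ATF6 had 2006, 2273 and 2351 normalized read counts with DMSO and 2159.5, 2015 and 1719 with dCBP-1; the other treated libraries ran from 1816 to 2476. Its 4 log2 fold changes against DMSO lay between −0.18 and −0.07, and the 95% interval with dCBP-1 was −0.44 to 0.09, so a reduction larger than that lower bound lies outside it. ATF6B had 1164, 1229.6 and 839 with DMSO, 415, 500.3 and 568 with A-485, 385, 383 and 459.7 with GNE-781, 530.3, 499 and 567 with the combination, and 452, 478 and 474 with dCBP-1. All 12 treated libraries lay below the 3 DMSO libraries, and the treated groups lay close together. ATF6B fell by 1.11 ± 0.16 with A-485 (limma, adjusted p = 0.00018), by 1.38 ± 0.16 with GNE-781 (adjusted p = 6.0e-07), by 0.999 ± 0.16 with the combination (adjusted p = 3.6e-05) and by 1.18 ± 0.16 with dCBP-1 (adjusted p = 4.5e-07). DMSO replicate 3, the control with the ordinary mitochondrial share, was the lowest of the 3 controls; without the other 2 the A-485 value was −0.77 and not called (adjusted p = 0.145), and the dCBP-1 value was −0.84 and still called (adjusted p = 0.0027). The annotated 3′ end of ATF6B overlaps TNXB on the same strand, which held at most 7.38 normalized read counts in any library; ATF6B also lies in the major histocompatibility region, for which hg19 holds alternate haplotypes, and how the counting treated them is not given in the sources used here.

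EIF2AK3 (ENSG00000172071), which encodes PERK, had log2 fold changes between −0.71 and −0.49 against DMSO. Its libraries held 867, 1118 and 1062 normalized read counts with DMSO, 853, 619 and 702 with A-485, 603, 721 and 769 with GNE-781, 518, 663 and 862 with the combination, and 755, 725 and 432 with dCBP-1. The treated libraries were all below the controls, but combination replicate 3 and A-485 replicate 1 came close to DMSO replicate 1. EIF2AK3 fell by 0.54 ± 0.19 with GNE-781 (limma, adjusted p = 0.0478), by 0.60 ± 0.19 with the combination (adjusted p = 0.0232) and by 0.71 ± 0.19 with dCBP-1 (adjusted p = 0.0037), and the A-485 value of −0.49 was not called (adjusted p = 0.188). Without dCBP-1 replicate 3, the lowest library, the dCBP-1 value was −0.45 and the call was lost (adjusted p = 0.0592). The GNE-781 and combination calls were lost without both DMSO replicates 1 and 2 (adjusted p = 0.203 and 0.143), and the GNE-781 call in 9 of 18 alternatives. Leaving out a single library ended the GNE-781 call for DMSO replicates 2 and 3 and each GNE-781 library (adjusted p from 0.0623 to 0.201), and the combination call for DMSO replicates 2 and 3 and combination replicates 1 and 2 (adjusted p from 0.0502 to 0.149). Testing without a filter also ended the combination call (limma, adjusted p = 0.0633). A transcript is annotated on the opposite strand over the 3′ end of EIF2AK3, and whether counting used strand is not stated.

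**Figure D2:**
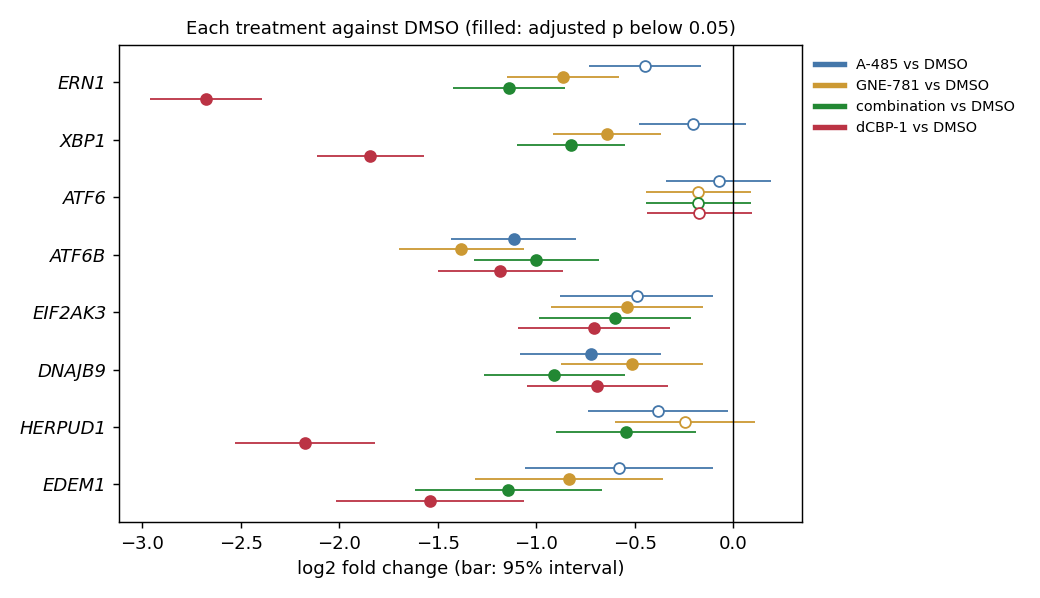
Log2 fold change against DMSO (horizontal axis) of each gene in the 4 treatments, with 95% intervals; filled points have an adjusted p below 0.05. ERN1, XBP1 and HERPUD1 with dCBP-1 lie apart from their inhibitor values, whereas the 4 values of ATF6B, EIF2AK3 and DNAJB9 have overlapping intervals.

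Of the output genes, HERPUD1 had the lowest level with dCBP-1 relative to DMSO, and DNAJB9 the highest. HERPUD1 (ENSG00000051108) had 8864, 9023 and 9853 normalized read counts with DMSO, 8889, 6318 and 6369 with A-485, 6933, 8112 and 8415 with GNE-781, 4979, 6331 and 8085 with the combination, and 2117, 2628 and 1534 with dCBP-1. The inhibitor libraries reached close to the controls, and the dCBP-1 libraries lay far below all others. It fell by 2.18 ± 0.17 with dCBP-1 (limma, adjusted p = 2.3e-11) and by 0.54 ± 0.17 with the combination (adjusted p = 0.0249), and the values with A-485 (−0.38) and GNE-781 (−0.25) were not called (adjusted p = 0.281 and 0.360). Against DMSO replicate 3 alone the combination value was −0.64 and not called (adjusted p = 0.131). The combination call was also lost without DMSO replicate 2 or 3, or without combination replicate 1 or 2 (adjusted p = 0.0597, 0.0542, 0.165 and 0.0710). Testing without a filter ended it too (limma, adjusted p = 0.0814).

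EDEM1 (ENSG00000134109) held 1478, 1704 and 1548 normalized read counts with DMSO, 1451, 834 and 962 with A-485, 661, 1078 and 963 with GNE-781, 483, 653 and 1148 with the combination, and 585, 684 and 395 with dCBP-1. A-485 replicate 1 and combination replicate 3 were high within their groups, in EDEM1 as in HERPUD1 and EIF2AK3. EDEM1 fell by 0.83 ± 0.23 with GNE-781 (limma, adjusted p = 0.0133), by 1.14 ± 0.23 with the combination (adjusted p = 0.00076) and by 1.54 ± 0.23 with dCBP-1 (adjusted p = 4.6e-06); A-485 gave −0.58 (adjusted p = 0.212). Set against DMSO replicate 3 alone, the GNE-781 and combination values were −0.81 and −1.12, neither called (adjusted p = 0.188 and 0.0502). The GNE-781 call was also lost without DMSO replicate 2 or GNE-781 replicate 1 (adjusted p = 0.0612 and 0.113), and without a filter (limma, adjusted p = 0.0516).

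DNAJB9 (ENSG00000128590) had 2330.4, 2021 and 1527 normalized read counts with DMSO, 1537, 1138 and 912 with A-485, 1245, 1321 and 1499.9 with GNE-781, 839, 1100.1 and 1177 with the combination, and 1063, 1471 and 1096 with dCBP-1. Its degrader libraries lay among the inhibitor libraries. It fell by 0.72 ± 0.18 with A-485 (limma, adjusted p = 0.0240), 0.51 ± 0.18 with GNE-781 (adjusted p = 0.0423), 0.91 ± 0.18 with the combination (adjusted p = 0.00044) and 0.69 ± 0.18 with dCBP-1 (adjusted p = 0.0024). All 4 calls were lost without both DMSO replicates 1 and 2: against replicate 3 alone, the values were −0.39, −0.18, −0.57 and −0.35, and the adjusted p 0.544, 0.743, 0.157 and 0.303. The A-485 call held in 10 of 18 alternatives and was lost without DMSO replicate 1 or 2 or A-485 replicate 2 or 3 (adjusted p = 0.125, 0.121, 0.0972 and 0.160). The GNE-781 call held in 9 of 18 and was lost without DMSO replicate 1 or 2 or any of the GNE-781 libraries (adjusted p from 0.0529 to 0.199).

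GNE-781 and dCBP-1 share a type of bromodomain ligand, and dCBP-1 adds the cereblon ligand; at the same dose and time, ERN1, XBP1 and HERPUD1 were lower with dCBP-1. The log2 fold change was −1.81 ± 0.14 for ERN1 (95% interval −2.09 to −1.53; limma, adjusted p = 3.2e-11), −1.201 ± 0.13 for XBP1 (−1.47 to −0.93; adjusted p = 6.9e-08) and −1.93 ± 0.17 for HERPUD1 (−2.29 to −1.58; adjusted p = 1.0e-09). The other 5 genes were not called. Their intervals were −0.26 to 0.27 for ATF6, −0.12 to 0.52 for ATF6B, −0.55 to 0.22 for EIF2AK3 and −0.53 to 0.18 for DNAJB9, which leave room for differences of those sizes. EDEM1, at −0.71 (−1.18 to −0.23), sat at the threshold: the adjusted p was 0.0536 as reported, and 6 of 17 alternatives called it, with adjusted p from 0.0173 to 0.269 over all 17. In this comparison 9.31% of all tested genes were called in either direction.

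The same 3 genes were lower with dCBP-1 than with the combination of both inhibitors, beside 6.17% of all tested genes called in either direction. dCBP-1 left 34.4% of the combination level of ERN1 (log2 fold change −1.54 ± 0.14; limma, adjusted p = 1.4e-09), 49.4% of XBP1 (−1.02 ± 0.13; adjusted p = 1.8e-06) and 32.2% of HERPUD1 (−1.63 ± 0.17; adjusted p = 3.7e-08). All of these calls held in each of the 17 alternatives run for both degrader comparisons. For EDEM1 the difference was −0.40 (95% interval −0.87 to 0.08), for ATF6B −0.18 (−0.50 to 0.13), for EIF2AK3 −0.11 (−0.49 to 0.28), for ATF6 0.00 (−0.26 to 0.27) and for DNAJB9 0.22 (−0.14 to 0.58).

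**Figure D3:**
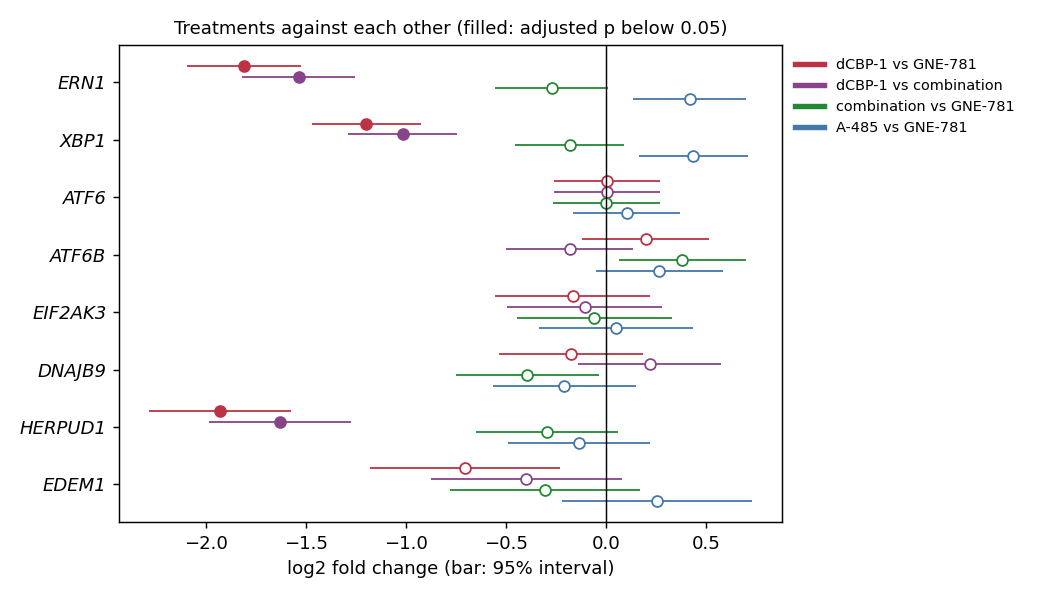
Log2 fold change between treatments (horizontal axis) of each gene, with 95% intervals; filled points have an adjusted p below 0.05. The filled points are ERN1, XBP1 and HERPUD1 in both degrader comparisons; no other difference between treatments passed the test.

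A-485 and GNE-781, which act on different domains of CBP and p300, were not told apart by any of the 8 genes in limma on the deposited scaling, where 1.0% of all tested genes were called. ERN1 and XBP1 had the lowest p, at log2 differences of 0.42 ± 0.14 and 0.44 ± 0.13, higher with A-485 (adjusted p = 0.169 and 0.125). Both passed an unadjusted p of 0.05, and both were called by edgeR (adjusted p = 0.0065 and 0.0079), DESeq2, and limma after TMM, median-ratio or quantile scaling. Adding A-485 to GNE-781 gave no call among the 8 by limma, edgeR or DESeq2. Over all tested genes limma called 0.00% there, edgeR called 0 genes and DESeq2 5, and at an unadjusted p below 0.05 limma had 494 genes, of which 2 were among the 8 (ATF6B at 0.38 and DNAJB9 at −0.39, both with an adjusted p of 0.9997). Intervals for ERN1 (−0.56 to 0.01) and XBP1 (−0.46 to 0.09) leave room for a modest further reduction by the combination.

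Non-additivity, the log2 change with the combination less the summed log2 changes with A-485 and with GNE-781, was called in ATF6B and in 0.447% of all tested genes. Its value of 1.495 ± 0.22 in ATF6B (limma, adjusted p = 0.00088) says that the combination stood higher than the sum of the 2 single reductions would place it. The value was 1.39, 1.41 and 1.38 after TMM, median-ratio and quantile scaling and 1.15 without both DMSO replicates 1 and 2, and none of these passed the test (adjusted p = 0.0744, 0.0577, 0.0557 and 0.10). For ERN1 and XBP1 it was 0.18 and 0.02 (adjusted p = 0.896 and 0.992).

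Because reads at 3′ ends do not scale with transcript length but genes differ in how well they are captured, ratios of reads between genes are used to compare libraries and not genes. DNAJB9 had 22.5, 18.5 and 15.6 reads per 100 reads of XBP1 in the DMSO libraries and 38.6, 45.2 and 41.0 with dCBP-1, while the inhibitor libraries ran from 12.0 to 20.8. EIF2AK3 had 60.3, 88.9 and 75.0 reads per 100 reads of ERN1 with DMSO and 351, 340 and 204 with dCBP-1, with 128 the highest in any other library. All 3 degrader libraries thus lay above the 12 others in both ratios. DNAJB9 and EIF2AK3 themselves fell with dCBP-1. XBP1 and ERN1 stood at 27.9% and 15.6% of DMSO there, so any gene that fell less than they did has a raised ratio. HERPUD1 had 85.8, 82.8 and 100.6 reads per 100 reads of XBP1 with DMSO and 76.8, 80.7 and 57.5 with dCBP-1, all 3 below the DMSO libraries. The A-485 libraries, at 85.0, 69.9 and 83.7, overlapped both of these groups, while GNE-781 and combination libraries ran from 94.4 to 132. EDEM1 had 14.3, 15.6 and 15.8 with DMSO and 21.2, 21.0 and 14.8 with dCBP-1, which overlap. ATF6B had 58.0, 54.1 and 35.7 reads per 100 reads of ATF6 with DMSO, and 16.8 to 30.3 in the 12 treated libraries. These ratios are a description without a test.

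**Figure D4:**
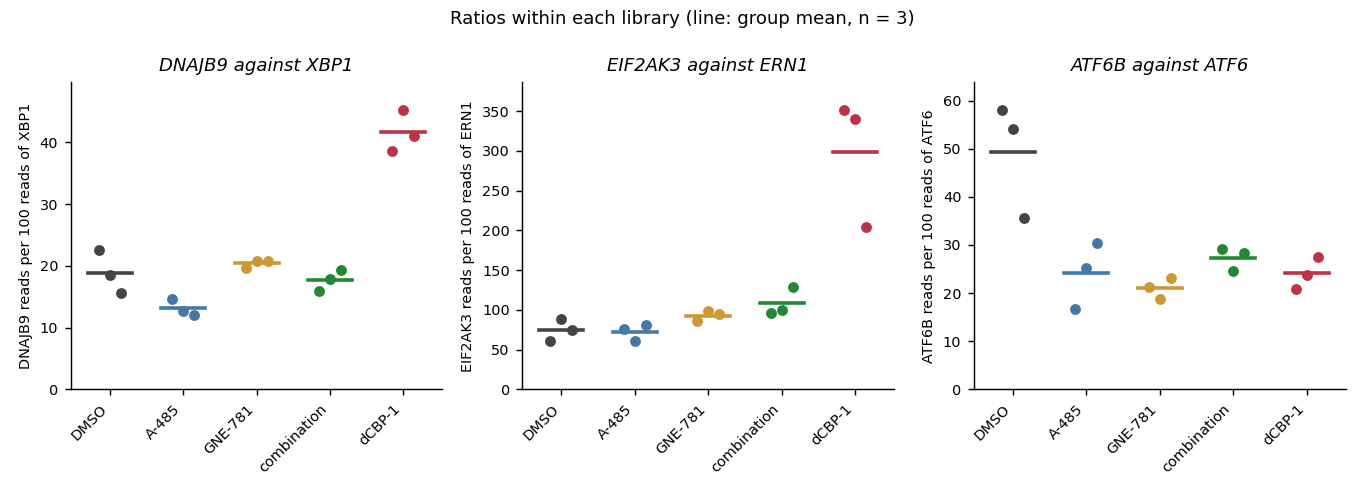
Reads of 1 gene per 100 reads of another (vertical axes, from 0) in each library, by group; lines are means of 3. The first 2 ratios are highest in the dCBP-1 libraries, and the third is highest in the DMSO libraries.

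The other genes of the response, taken from lists, were called in both directions with dCBP-1, where 37.8% of all genes tested were called, 19.3% higher and 18.5% lower, with a median of 0.07. Without both DMSO replicates 1 and 2 these shares were 7.75% higher and 15.8% lower. None of the lists includes the 8 genes, so the fallen DNAJB9, EDEM1 and HERPUD1 (−0.69, −1.54 and −2.18) enter none of the counts or medians below. Of 22 XBP1 targets in secretion and folding, 2 rose and 3 fell (22.7% called, beside 37.8% of all genes). The median log2 fold change of these 22 was −0.04. The counts moved with the method, to 8 risen and 1 fallen after quantile normalization and to 4 risen and 5 fallen with DESeq2. SEC61G, a subunit of the translocation channel, fell by 0.79 ± 0.19 (limma, adjusted p = 0.0018), and SERP1, which stabilizes membrane proteins, by 0.45 (adjusted p = 0.0070). SEC24D, a coat protein of vesicles leaving the reticulum, rose by 0.69 (adjusted p = 0.0026) and HSPA13, a chaperone-like ATPase, by 0.49 (adjusted p = 0.0140; 0.0525 without DMSO replicate 3 and 0.0880 without dCBP-1 replicate 1). With DMSO replicates 1 and 2 left out, 1 rose and 1 fell: SERP1 and SEC24D were no longer called (adjusted p = 0.167 and 0.285).

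Of 13 ATF6 targets 2 rose and 3 fell, with a median of −0.10; the 38.5% called is near the 37.8% of all genes. HSPA5, which encodes the chaperone BiP, rose from 16836 ± 3051 (SD, n = 3) normalized read counts with DMSO to 29011 ± 1209 with dCBP-1 (log2 fold change 0.80 ± 0.14; limma, adjusted p = 5.9e-05). CRELD2, another gene of the luminal folding response, rose by 0.59 (adjusted p = 0.00059). SEL1L, the partner of the ubiquitin ligase HRD1, fell from 3249 ± 299 to 1301 ± 74.2 (log2 fold change −1.32 ± 0.13; adjusted p = 1.1e-09), and the disulfide isomerase PDIA4 fell by 0.82 (adjusted p = 0.00018). With those 2 controls left out, the rise of HSPA5 was 0.51 (adjusted p = 0.0310), that of CRELD2 0.34 and not called (adjusted p = 0.128), and 1 of the 13 rose and 4 fell.

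Of 11 tested genes of PERK and ATF4 output, 4 rose and 5 fell (81.8% called, beside 37.8% of all genes), with a median of −0.26. ASNS (asparagine synthetase) rose by 1.11 ± 0.17 (limma, adjusted p = 5.1e-06) and CHAC1, which degrades glutathione, by 0.77 ± 0.15 (adjusted p = 0.00015). The mean of ASNS was 776 normalized read counts with DMSO and 1653 with dCBP-1. It was 933 with A-485, 1451 with GNE-781 and 1517 with the combination. VEGFA, a secreted growth factor, fell by 1.49 ± 0.17 (adjusted p = 3.5e-08) and the transcription factor CEBPB by 1.21 ± 0.16 (adjusted p = 6.7e-07). CHAC1 went the other way with A-485, at −0.86 ± 0.15 against DMSO (adjusted p = 0.0021), and with the combination, at −0.57 ± 0.15 (adjusted p = 0.0068), and was higher with dCBP-1 than with the combination by 1.34 ± 0.15 (adjusted p = 1.0e-07). Leaving out DMSO replicates 1 and 2, 2 rose and 5 fell, and ASNS rose by 0.63 (adjusted p = 0.0244).

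In the degradation machinery of the reticulum 6 of 20 rose and 5 fell (55.0% called, beside 37.8% of all genes), with a median of 0.09. UBE2J1, a membrane-anchored ubiquitin-conjugating enzyme, fell by 1.44 ± 0.13 (limma, adjusted p = 2.5e-10), and EDEM3, a relative of EDEM1, by 0.82 ± 0.14 (adjusted p = 4.5e-05). FAF2 and UFD1, partners of the segregase VCP, rose by 0.75 and 0.78 (adjusted p = 0.00010 and 0.00015). Without both DMSO replicates 1 and 2 none of the 20 rose, with FAF2 at 0.46 and UFD1 at 0.29 (adjusted p = 0.0655 and 0.220), and 3 fell, UBE2J1 by 1.51 (adjusted p = 3.2e-07).

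Among 16 partners and processing enzymes of the sensors 2 rose and 5 fell, with a median of −0.08; the 43.8% called is near the 37.8% of all genes. MAP3K5 (ASK1) and TRAF2, which link IRE1 to stress kinase signalling, fell by 1.38 ± 0.18 and 0.98 ± 0.19 (limma, adjusted p = 4.0e-07 and 0.00013). EIF2S1, the subunit of eIF2 that PERK phosphorylates, fell by 0.67 ± 0.15 (adjusted p = 0.00060), and MBTPS1, a protease that cleaves ATF6, by 0.51 ± 0.14 (adjusted p = 0.0039). Without both DMSO replicates 1 and 2 these 4 were still called, and no gene of the list rose.

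Of the related kinases and membrane transcription factors, 7 of 9 were tested, 2 rose and 1 fell, with a median of 0.11; the 42.9% called is again near the share of all genes. CREB3 rose by 0.72 ± 0.15 (limma, adjusted p = 0.00029) and CREB3L2 fell by 0.41 ± 0.15 (adjusted p = 0.0261), the latter call being lost without DMSO replicate 3 (−0.31, adjusted p = 0.104) or without dCBP-1 replicate 3 (−0.31, adjusted p = 0.137). ERN2, the epithelial relative of ERN1, was the other gene that rose by limma, with a log2 fold change of 3.14. Its mean was 3.84 normalized read counts with DMSO and 21.3 with dCBP-1, levels at which edgeR did not call it (adjusted p = 0.0583). The sum of the 3 epithelial markers went from at most 5.77 with DMSO to at least 21.8 with dCBP-1, mostly through KRT18 (means of 0 and 20.5). KRT8 did not rise (means of 3.54 with DMSO and 3.03 with dCBP-1), and EPCAM held at most 3.67 in any library. The part of these markers in the ERN2 value was not tested. Of transcripts known to be cut by IRE1 itself, 5 of 8 were tested, with a median of 0.12 and 40% called, near the share of all genes, and BLOC1S1 (0.60 ± 0.18, adjusted p = 0.0104) and PDGFRB (1.60 ± 0.53, adjusted p = 0.0175, on a mean of 23.0 against 7.71) rose by limma. Neither was called without DMSO replicate 1 (0.34 and 1.096, adjusted p = 0.137 and 0.110) or without dCBP-1 replicate 3 (0.47 and 1.48, both with an adjusted p of 0.0654). Against DMSO replicate 3 alone the values of BLOC1S1 and PDGFRB were 0.19 and 1.15.

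**Figure D5:**
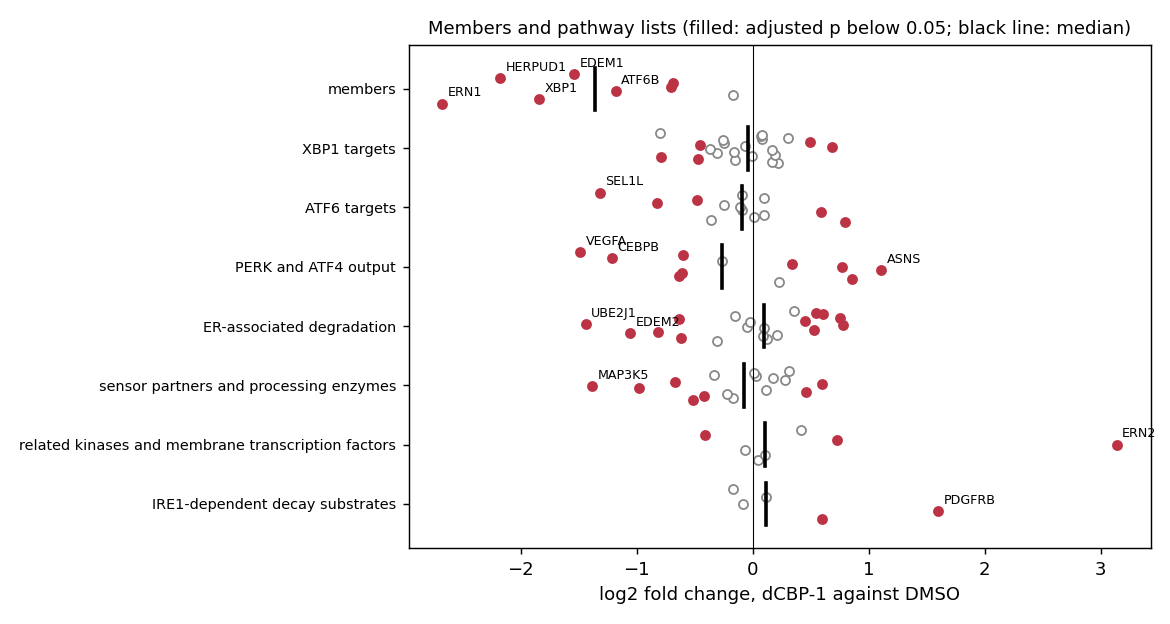
Log2 fold change with dCBP-1 against DMSO (horizontal axis) of the 8 genes (members) and of the tested genes of 7 lists; filled points have an adjusted p below 0.05, black lines are medians, and names mark values beyond 1 in either direction. The median of the 8 genes is −1.36, while every list has genes on both sides of 0. The 8 genes and the lists were chosen with earlier results of these data known.

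Across the 15 libraries, ERN1 and XBP1 followed each other closely (Pearson r of the log2 levels 0.99), and HERPUD1 followed ERN1 (r = 0.94), whereas ATF6 (r = 0.42) and DNAJB9 (r = 0.47) did so less. Likeness was sought among 7880 genes at or above the median level. Unnamed transcripts, antisense genes, and clone, LINC, LOC or open reading frame names were left out. Those most like ERN1 were MACC1, ST3GAL1 and TNS3 (r = 0.996, 0.995 and 0.994), and those most like XBP1 were SEC14L1, TRAM2 and ERN1 itself (r = 0.993, 0.991 and 0.988). HERPUD1 was most like VEGFA, FAT1 and WNT5B (r = 0.985, 0.984 and 0.982), and EDEM1 most like QPCT, TFB2M and LRPPRC (r = 0.983, 0.980 and 0.975). The nearest to EIF2AK3 were GNB2, PDIA4 and LRRC41 (r = 0.960, 0.960 and 0.958), to ATF6B SF3A2, CLTB and H1-10 (r = 0.966, 0.951 and 0.949), to DNAJB9 MAPRE1, CYSTM1 and EIF4H (r = 0.937, 0.919 and 0.905), and to ATF6 DIPK2A, DNAAF5 and KEAP1 (r = 0.910, 0.906 and 0.903). The libraries share their treatments and scaling factors, so these values describe likeness over 5 conditions and carry no test.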

How the data were processed

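Transcripts of MM.1S cells were read from their 3′ ends (QuantSeq), grouped by sample titles, with 3 libraries in each of 5 groups. The authors deposited a gene-level signal called normalized read counts; the build was hg19, per the submitters' processing notes, and the aligner, the counting and the normalization are not given in the sources used here. Tested on the values, 100% were whole multiples of 1 step per library (tolerance 0.01 of a read), so reads were recovered. The deposited table ends in an identifier without a value, and later genes were not analysed here. It held 0 spike-in (ERCC) rows, although the labels name ERCC spike-ins. Whether the deposited scaling used them is not known, so no value is read here as a measure of RNA per cell. The treatment field of 2 combination libraries names other compound numbers and the molecule field says genomic DNA; titles were followed.

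Genes at 5 or more in at least 3 of 15 libraries (16104) were tested on log2(value + 1) with limma-trend (limma 3.58.1, R 4.3.3), in a single model of 5 group means, two-sided, with Benjamini-Hochberg adjustment in each of 9 comparisons genes being called below an adjusted p of 0.05. Errors of fold changes are SE. The fits were tested on simulated data. The labels do not say whether replicates came from separate cultures, so p-values measure the spread between these libraries, which may be technical. Alternatives were other scalings, pseudocounts of 0.25 and 5, no filter or a filter at 20, a fit to just the groups compared, the replicate number as a block, edgeR 4.0.16 and DESeq2 1.42.0 on recovered reads, and libraries left out.

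Named are the 8 genes, up to 4 genes of each list with the smallest p in dCBP-1 against DMSO, and the 3 genes most like each of the 8. Genes and lists were chosen with earlier results of these data known. Promoters came from RefSeq (GRCh38.p14), matched by symbol for all 8.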

Additional observations from a re-analysis of the deposited data

Results flagged for a closer look

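The effect of A-485 and GNE-781 on ATF6B differed according to whether the other compound was present. The interaction was 1.495 ± 0.22 on the log2 scale (limma, adjusted p = 0.00088), with all 12 treated libraries below the DMSO libraries. The call was lost under 3 scalings and without DMSO replicates 1 and 2 together, as given above.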

How the results depend on the processing

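Of the values of single genes recomputed under the alternatives, 1189 kept their direction and their side of the threshold, 52 lost a call, 19 gained a call and 52, called neither as reported nor under the alternative, changed sign; none that was called did. Against 2 called members with A-485, 1 was called after quantile normalization, without a filter and with only the groups compared, and 0 without both DMSO replicates 1 and 2; leaving out single libraries gave 1 to 2. Against 6 with GNE-781, 3 were called without a filter and 2 without both of those DMSO libraries; leaving out single libraries gave 3 to 5. The combination count went from 7 to 3 without both. Between A-485 and GNE-781 the count rose from 0 to 2 after TMM, median-ratio and quantile scaling and with edgeR and DESeq2. Non-additivity went from 1 to 0 after those 3 scalings and without both DMSO libraries. The cause was not tested. TMM shifted the median of all genes in the non-additivity comparison by −0.10.

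Replicate numbers did not pair the samples: over 30 pairs with the same number, deviations from group means correlated between −0.157 and 0.0995, and 0 of 15 libraries correlated best with its own number. With the replicate number as a block, 2, 4, 7 and 7 members were called against DMSO in the order A-485, GNE-781, combination, dCBP-1, then 3 against the combination, 3 against GNE-781, 0 and 0 between inhibitor treatments, and 1 in non-additivity; EIF2AK3 and DNAJB9 with GNE-781 were the lost calls (limma, adjusted p = 0.0620 and 0.0519).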
